A study of Mus musculus with 4 samples.

Results

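Of the 13265 genes in the deposited table, the 6 described here encode receptors that were first studied on natural killer (NK) cells. They are *Klrg1*, *Klrc1*, *Klrd1*, *Klrk1*, *Cd160* and *Cd7*, picked by symbol and not by a rule on their values, but with earlier results of these data known. All 6 were found. The first 4 belong to the killer cell lectin-like receptors, whereas *Cd160* and *Cd7* encode members of the immunoglobulin superfamily. NK cells weigh inhibitory against activating receptors before they kill a target, and αβ T cells can gain the same receptors after strong or repeated activation, where they tune T cell receptor signaling and cytotoxicity. KLRG1 is an inhibitory receptor for cadherins such as E-cadherin. NKG2A, encoded by *Klrc1*, pairs with CD94, encoded by *Klrd1*, in an inhibitory receptor for the nonclassical class I molecule Qa-1, whereas NKG2D, encoded by *Klrk1*, is an activating receptor for stress-induced ligands and signals through the adaptor DAP10.

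The study asked how TGFβ signaling shapes intestinal T helper 17 (TH17) cells, and used droplet-based 3′ single-cell RNA sequencing on YFP+CD4+ T cells of the small intestine, taken from mice aged 7 to 8 months. In all 3 genotypes an *Il17a*-driven Cre switches on a Rosa26-stop-fl/fl-yfp reporter, so YFP marks any cell that has expressed *Il17a*, whatever it makes when sampled. TGFβR-KO mice lose *Tgfbr2* in these cells, TGFβR-CA mice gain a constitutively active *Tgfbr1* in them, and TGFβR-WT littermates carry neither allele. The mice were of both sexes on a C57BL/6 background. Animals were pooled into 4 samples, of which 2 were TGFβR-WT and the other genotypes had 1 each, so a difference between genotypes has no replicate check and no test was made. The methods give 2 sequencing batches, each with TGFβR-WT cells, one beside TGFβR-KO and the other beside TGFβR-CA.

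The table held 2975 TGFβR-KO, 1098 TGFβR-CA and 1007 TGFβR-WT cells in 8 clusters that the authors had named, among them CTL for cytotoxic cells and GC-TFH and TR-TFH for follicular helper (TFH) cells of germinal center and tissue-resident type. Name suffixes divided the TGFβR-WT cells into sets of 709 (the larger set) and 298 (the smaller set), neither of which could be tied to a sample, and values are given for both. Values were numbers of UMIs (tags that mark single captured RNA molecules) corrected by the authors to a common depth, so the original depth of a cell is unknown. Median corrected totals were between 3440 and 3984 UMIs per cell in the 4 sets. A level is the group's summed UMIs of a gene per 10000 of its corrected UMIs, and a cell is called positive where its value is above 0. Intervals on shares of cells are exact 95% Clopper-Pearson intervals and cover counting error only. *Tgfbr2* was at a level of 1.48 in TGFβR-KO and between 1.72 and 1.78 in the other sets, and *Tgfbr1* was at 0.792 in TGFβR-CA, between 0.367 and 2.79 in the TGFβR-WT sets. Tags from the 3′ end need not show a floxed exon or a transgene, so these values check no label, and conditions are named as the cells are labelled. 16 barcodes occurred in more than 1 set, and 24 of the 32 cells carrying them were in the cycling cluster. They were 15 TGFβR-KO cells, 15 of the larger TGFβR-WT set, 1 of the smaller set and 1 TGFβR-CA cell, with 6 of the 32 positive for *Cd160*, 6 for *Cd7* and 0 for the other members.

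The cells carried the markers of αβ CD4 T cells. The summed level of 11 CD4 T cell genes was between 108 and 135 per 10000 in the 4 sets. Both CD8 genes together were between 0.0199 and 0.0453. Of the γδ T cell genes, *Tcrg-C1*, *Tcrg-C2*, *Tcrg-C4* and *Trgv2* were at 0 in all cells, which the authors' removal of γδ T cells by such genes would give, and the 6 genes measured summed to 0.0523 in TGFβR-KO and 0.0548 to 0.231 elsewhere. The 5 NK cell genes measured summed to 0.211 in TGFβR-KO and 0.239 to 0.323 elsewhere, nearly all of it *Klrb1c* with 419 UMIs, beside 20 UMIs of *Eomes*, 8 of *Tyrobp*, 7 of *Klre1* and 5 of *Fcer1g*. A YFP+CD4+ gate would also keep NKT cells, and *Klrb1c* was not higher in TGFβR-KO (0.179) than in the TGFβR-WT sets (0.315 and 0.231).

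*Klrg1*, *Klrc1*, *Klrd1* and *Klrk1* lie on chromosome 6 of the mm10 assembly (GRCm38), and 3 of them are near one another. These are *Klrd1* at chr6:129591782-129598775 on the plus strand, *Klrk1* at chr6:129610323-129623864 and *Klrc1* at chr6:129666015-129678973, both on the minus strand. *Klrg1* lies apart at chr6:122270596-122282882. *Cd160* is at chr3:96798763-96829351 and *Cd7* at chr11:121036747-121039418. *Klrc1* has close copies beside it in *Klrc2* and *Klrc3*, so reads of these genes may not be fully separated, and *Klrc2* had 7 UMIs in all.

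RefSeq promoter sequences were at hand for 3 of the 6 members, *Klrc1*, *Klrk1* and *Cd160*, the last with 2 start sites of which the second lies inside the gene. The 250 bases before each start are shown because 3 families of factors with known roles in these cells, T-box factors (T-bet, encoded by *Tbx21*), RUNX factors and the SMAD factors that carry TGFβ signals, bind short motifs that can be looked for in them. Capitals mark matches to GGTGTGA (T-box), TGTGGT (RUNX) or CAGAC (SMAD) on either strand, and no matches overlapped one another. Bases run 5′ to 3′ along the gene.
Klrc1, chr6:129678974-129679223, minus strand: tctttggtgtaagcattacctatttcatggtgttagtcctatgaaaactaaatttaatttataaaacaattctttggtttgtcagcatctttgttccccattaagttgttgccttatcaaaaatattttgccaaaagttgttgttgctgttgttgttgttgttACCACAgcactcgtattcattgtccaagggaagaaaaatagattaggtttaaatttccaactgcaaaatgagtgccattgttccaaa
Klrk1, chr6:129623865-129624114, minus strand: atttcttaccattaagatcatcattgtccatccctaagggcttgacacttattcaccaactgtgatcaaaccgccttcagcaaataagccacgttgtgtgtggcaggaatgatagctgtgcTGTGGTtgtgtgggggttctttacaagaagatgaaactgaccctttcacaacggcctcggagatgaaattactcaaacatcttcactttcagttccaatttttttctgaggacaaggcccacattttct
Cd160 outer start, chr3:96829352-96829601, minus strand: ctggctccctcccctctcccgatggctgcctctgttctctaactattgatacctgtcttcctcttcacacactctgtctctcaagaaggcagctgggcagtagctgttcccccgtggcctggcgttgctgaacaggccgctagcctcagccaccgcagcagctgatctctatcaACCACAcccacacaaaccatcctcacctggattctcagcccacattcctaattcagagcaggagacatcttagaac
Cd160 inner start, chr3:96814522-96814771, minus strand: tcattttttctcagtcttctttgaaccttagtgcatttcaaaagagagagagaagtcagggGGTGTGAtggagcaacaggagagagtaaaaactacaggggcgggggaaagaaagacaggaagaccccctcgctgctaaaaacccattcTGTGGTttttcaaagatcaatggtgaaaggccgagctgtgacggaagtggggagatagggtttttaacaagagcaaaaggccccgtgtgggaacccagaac
The RUNX motif occurred once in each of these 4 stretches, and in 14.0% of all 32851 promoter stretches of the same length. It lay 87 to 82 bases before the start in *Klrc1*, 129 to 124 in *Klrk1*, 76 to 71 at the outer and 101 to 96 at the inner *Cd160* start. The T-box motif was found only at the inner *Cd160* start, 189 to 183 bases before it, and in 3.33% of all stretches. The SMAD motif was in none of the 4 and in 42.2% of all stretches. A match of letters is not a measured binding site.

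*Klrg1* transcripts were seen in TGFβR-KO cells only. There, 119 of 2975 cells were positive (4%, 95% interval 3.32 to 4.77), at a level of 0.199. It was listed at 0 in all 709 and 298 TGFβR-WT cells and in all 1098 TGFβR-CA cells, which by a limit of 3 counts allows shares of up to 0.423%, 1.01% and 0.273%. With the pooled TGFβR-WT cells put at 3 UMIs, the level in TGFβR-KO was at least 24.7-fold higher, and at least 8.07-fold higher against the smaller set alone. A listed 0 may not be a count of 0, however. In every set, genes in 1 to 4 cells were few beside those in 0 cells (820 against 1999 in the larger TGFβR-WT set, 547 against 1753 in TGFβR-CA), and in 3 of the 4 sets beside those in 5 to 8 cells (1017 and 892 in these 2 sets). SCTransform by default leaves out genes found in fewer than 5 cells. Whether such a limit set the zeros here was not tested. With a set listed at 0 put at 4 positive cells, the share in TGFβR-KO would be 2.98 times that of the smaller set, so the larger folds above hold only if 0 means 0.

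The inhibitory pair *Klrc1* and *Klrd1* was rare. *Klrc1* was found in 24 TGFβR-KO cells (0.807%, 0.518 to 1.2) at a level of 0.0287, and it was listed at 0 in TGFβR-WT and TGFβR-CA. Its 0 positive cells in the smaller TGFβR-WT set allow up to 1.01%, above the TGFβR-KO share, so a difference from that set was not detectable at this depth. *Klrd1* was found in 70 TGFβR-KO cells (2.35%, 1.84 to 2.96) at a level of 0.102. In the larger TGFβR-WT set 6 cells were positive (0.846%, 0.311 to 1.83) at a level of 0.0239, and in the smaller set and TGFβR-CA none. CD94 is the shared partner of the NKG2 family, and its transcript was therefore present without TGFβR loss, in a share below the TGFβR-KO interval. 1 CTL cell gave 12 of the 117 *Klrd1* UMIs of TGFβR-KO, and without it the level was 0.0915.

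*Klrk1*, the activating NKG2D receptor, was found in 75 TGFβR-KO cells (2.52%, 1.99 to 3.15) at a level of 0.0775. In the larger TGFβR-WT set 7 cells were positive (0.987%, 0.398 to 2.02) at a level of 0.0279. The smaller set and TGFβR-CA were listed at 0, which allows up to 1.01% and 0.273%. The intervals of TGFβR-KO and of the larger TGFβR-WT set overlap slightly, and whether counting error could give the difference was not tested.

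*Cd160* and *Cd7* were the members with transcripts in every set. *Cd160*, which binds the herpesvirus entry mediator (*Tnfrsf14*), was positive in 498 TGFβR-KO cells (16.7%, 15.4 to 18.1), 78 cells of the larger TGFβR-WT set (11%, 8.79 to 13.5), 21 of the smaller set (7.05%, 4.41 to 10.6) and 111 TGFβR-CA cells (10.1%, 8.39 to 12). Its level was 0.895 in TGFβR-KO, 0.519 and 0.363 in the TGFβR-WT sets and 0.415 in TGFβR-CA. This put TGFβR-KO at 1.72 and 2.47 times the TGFβR-WT sets, whereas TGFβR-CA lay between them. A single GC-TFH cell with 63 UMIs (the next cell had 12) weighed on this level, which was 0.840 without it.

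*Cd7*, a costimulatory receptor of T and NK cells that binds galectin-1 (*Lgals1*), parted the genotypes in both directions. It was positive in 664 TGFβR-KO cells (22.3%, 20.8 to 23.9), 42 and 8 cells of the TGFβR-WT sets (5.92%, 4.30 to 7.92, and 2.68%, 1.17 to 5.22) and 8 TGFβR-CA cells (0.729%, 0.315 to 1.43). Levels were 1.25 in TGFβR-KO, 0.339 and 0.0742 in the TGFβR-WT sets and 0.0342 in TGFβR-CA. TGFβR-KO was 3.70 and 16.9 times higher than the TGFβR-WT sets, and TGFβR-CA was 9.91 and 2.17 times lower. The TGFβR-WT sets themselves differed by more than the smaller of these steps, and the TGFβR-CA and smaller TGFβR-WT shares had overlapping intervals.

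**Figure D1:**
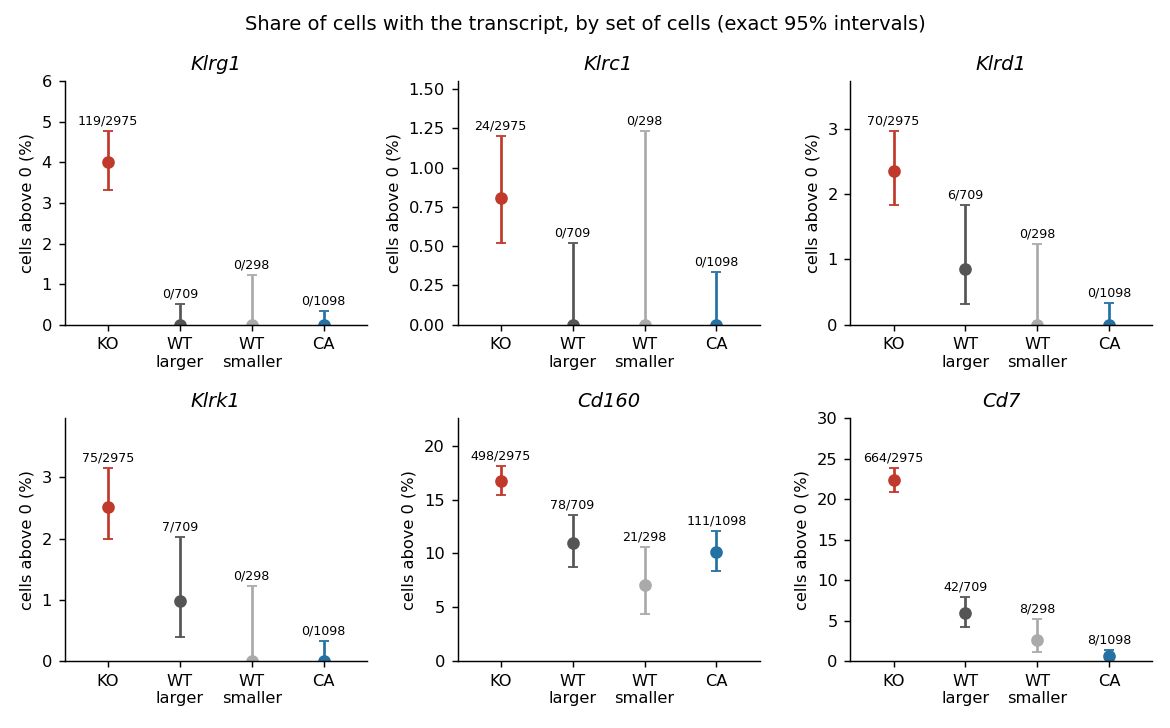
Share of positive cells (y axis, in %) for each receptor, from left to right in TGFβR-KO, both TGFβR-WT sets (larger first) and TGFβR-CA, with exact 95% intervals and the number of positive cells over all cells. All 6 receptors had their highest share in TGFβR-KO, and *Klrg1* and *Klrc1* had none elsewhere.

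Differences were called by size, where a gene with at least 200 corrected UMIs in all cells was at least 1.5 times higher or lower than in both TGFβR-WT sets. By that rule 2.94% of 7490 genes were higher in TGFβR-KO, and of the members *Klrg1*, *Cd160* and *Cd7* were called. *Klrg1* reached the minimum of UMIs through TGFβR-KO alone and so had to differ. *Cd7* too passed only through TGFβR-KO, which held 1440 of its 1549 UMIs, so its call is not independent of that filter. *Klrc1*, *Klrd1* and *Klrk1* stayed below the minimum with 33, 123 and 96 UMIs. None of the members was lower in TGFβR-KO (5.43% of genes were) and none was higher in TGFβR-CA (1.23%). *Cd7* was lower in TGFβR-CA, as were 2.74% of genes.

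Within TGFβR-KO the members were unevenly spread over the clusters, which were made from these same cells and are given as a description. *Klrg1* was positive in 60 of 361 tumorigenic cells (16.6%, 12.9 to 20.9) and 35 of 321 CTL cells (10.9%, 7.71 to 14.8). It was in 5 of 77 cycling cells and in 0.963% to 2.20% of the migratory, activated and pre-tumorigenic cells. Among the 837 cells of both TFH clusters 0 were positive, allowing up to 0.358%. The part of free RNA of the sample in the positive cells of other clusters was not tested. *Klrc1* was narrower, with 20 of its 24 positive cells in the tumorigenic cluster (5.54% of that cluster) and 1 in CTL. *Klrd1* was positive in 7.17% of CTL (4.60 to 10.6), 5.54% of tumorigenic (3.42 to 8.43) and 2.89% of migratory cells (1.86 to 4.27), and in 2 of the 837 TFH cells. *Klrk1* was positive in 8.59% of tumorigenic (5.91 to 12) and 3.25% of migratory cells (2.15 to 4.69), yet in 2 of the 321 CTL cells.

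*Cd160* and *Cd7* had other places. Both were most frequent in CTL, with *Cd160* in 40.5% (35.1 to 46.1) and *Cd7* in 62.6% (57.1 to 67.9) of its cells. The authors list *Cd160* among the cytotoxic genes of that cluster, so its share there is not independent of the cluster's name. *Cd160* was next in cycling (37.7%, 26.9 to 49.4) and GC-TFH cells (29.2%, 24.3 to 34.6), and was positive in 8.59% of tumorigenic and 6.98% of migratory cells. *Cd7* was next in migratory (31.2%, 28.0 to 34.4) and cycling cells (29.9%), and in 7.23% of GC-TFH and 4.82% of TR-TFH cells. The tumorigenic cluster therefore held the highest share of *Klrg1*, *Klrc1* and *Klrk1*. Its shares of *Cd160* (8.59%) and *Cd7* (12.2%) were below those of CTL, and its *Cd7* share was above those of both TFH clusters.

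**Figure D2:**
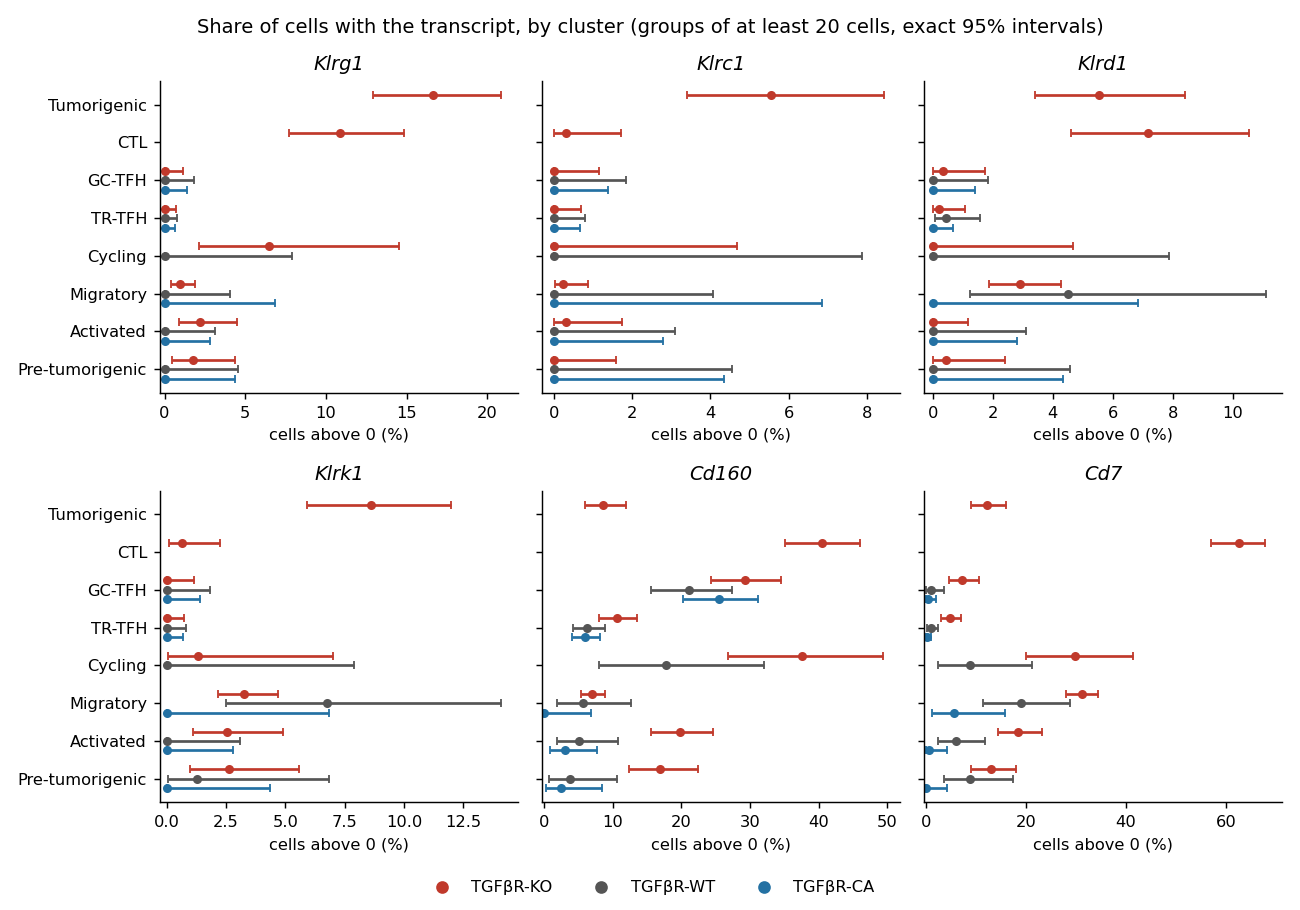
Share of positive cells (x axis, in %) by cluster for TGFβR-KO (red), TGFβR-WT (gray, both sets pooled) and TGFβR-CA (blue), with exact 95% intervals, for groups of at least 20 cells. The tumorigenic and CTL clusters have only a TGFβR-KO point, since the other genotypes had 2 to 13 cells there.

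The tumorigenic cluster held 361 TGFβR-KO, 5 TGFβR-WT and 2 TGFβR-CA cells, and CTL 321, 13 and 3, so the clusters richest in these receptors were themselves nearly confined to TGFβR-KO. Of the 13 TGFβR-WT CTL cells, 6 were positive for *Cd160* (46.2%, 19.2 to 74.9) and 8 for *Cd7* (61.5%, 31.6 to 86.1), close to the shares of TGFβR-KO CTL cells but with wide intervals. 2 of the 3 TGFβR-CA CTL cells were positive for each. None of these TGFβR-WT or TGFβR-CA cells had a *Klr* member, but 0 of 13 cells allows up to 23.1%, above every *Klr* share of TGFβR-KO CTL cells.

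Weighting the clusters of TGFβR-KO to their TGFβR-WT shares separated the members. The *Cd160* level hardly moved, from 0.895 to 0.918, against 0.468 in pooled TGFβR-WT. *Cd7* moved from 1.25 to 0.636, still 2.51 times the TGFβR-WT level of 0.253. *Klrd1* went from 0.102 to 0.0190 and *Klrk1* from 0.0775 to 0.0244, which was 1.18 and 1.30 times TGFβR-WT in place of 6.32 and 4.12 times. *Klrg1* went from 0.199 to 0.0485, with TGFβR-WT at 0 (3 UMIs there would be 0.00807). The weighted TGFβR-CA cells had *Cd7* at 0.107, up from 0.0342, with 8 of their 15 *Cd7* UMIs in the 3 CTL cells.

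**Figure D3:**
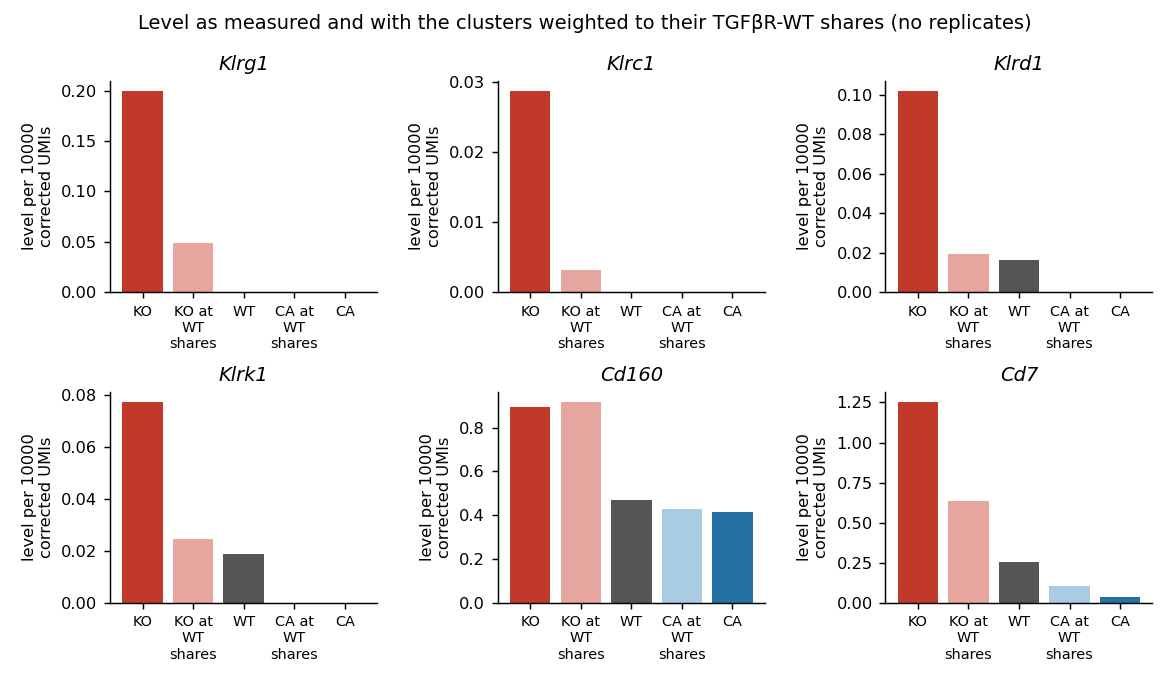
Level per 10000 corrected UMIs (bars, y axis from 0) in TGFβR-KO, TGFβR-WT and TGFβR-CA as measured, and in TGFβR-KO and TGFβR-CA with clusters weighted to TGFβR-WT shares. The TGFβR-KO bar of *Cd160* keeps its height (0.895 and 0.918), while those of *Klrd1* and *Klrk1* come down to 0.0190 and 0.0244, near TGFβR-WT.

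Cluster by cluster, *Cd160* and *Cd7* could be set beside TGFβR-WT in 5 clusters with at least 50 cells of each. *Cd160* was 5.08 times higher in activated TGFβR-KO cells than in activated TGFβR-WT cells (level 0.915 and 0.180), where 9.31% of genes were at least 1.5 times higher. It was 2.01 times higher in GC-TFH cells (2.18 and 1.08, background 6.61%). The TGFβR-KO level there was 1.67 without the cell of 63 UMIs, against 1.25 in the larger TGFβR-WT set. The ratio to pooled TGFβR-WT was 1.58 in TR-TFH (3.33%) and 1.51 in migratory cells (9.44%), but neither reached 1.5 against the larger set. The TR-TFH level of 0.342 stood against 0.267 in the larger set and 0.112 in the smaller. The migratory level of 0.268 stood against 0.222 and 0. In pre-tumorigenic cells it was 1.84 (background 13.2%), but 8 of the 11 TGFβR-WT UMIs there came from 1 cell, and 39 of 230 TGFβR-KO cells (17.0%) and 3 of 79 TGFβR-WT cells (3.80%) were positive. *Cd7* was 6.91 times higher in GC-TFH cells (0.463 and 0.0670), 4.30 times in TR-TFH (0.207 and 0.0483) and 3.50 times in activated cells (1.1 and 0.315). In pre-tumorigenic and migratory cells the *Cd7* ratios were 2.06 and 1.46, but neither held against both TGFβR-WT sets. The pre-tumorigenic TGFβR-KO level of 0.632 was below the 0.659 of the larger set and above the 0.149 of the smaller, and the migratory level of 1.47 stood against 1.22 and 0.148. No TGFβR-KO cluster lacked *Cd7*, and the part of free RNA in its low TFH shares of TGFβR-KO (4.82% and 7.23%) was not tested. Levels of the TGFβR-WT side rest on few molecules, between 5 and 34 UMIs for *Cd7* and 6 and 81 for *Cd160*.

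In TGFβR-CA *Cd7* was below pooled TGFβR-WT in the same clusters, but on few molecules. In migratory cells it was at 0.140 against 1.01 (1.22 in the larger set and 0.148, about the TGFβR-CA level, in the smaller). In activated cells it was at 0.0188 against 0.315, from 1 and 14 UMIs. The larger TGFβR-WT set was at 0.404 there and the smaller at 0.0814. In pre-tumorigenic cells it was at 0 against 0.307, from 0 and 9 UMIs. The larger set was at 0.659 there and the smaller at 0.149. Activated and pre-tumorigenic cells thus stayed below the minimum of UMIs used within a cluster, and no difference was called in them. *Cd160* was at 1.16 in GC-TFH cells against 1.08, and at 0.201 against 0.217 in TR-TFH cells. It was lower in activated (0.0751 against 0.180) and pre-tumorigenic cells (0.0627 against 0.375), where it rested on 4 and 2 UMIs in TGFβR-CA and, in pre-tumorigenic TGFβR-WT cells, on the 1 cell with 8 of 11 UMIs. Shares there were 2 of 83 and 3 of 79 cells.

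The *Klr* members within clusters were too sparse for ratios. In activated cells *Klrg1* had 21 UMIs in TGFβR-KO against a listed 0, a ratio of 2.54 with TGFβR-WT put at 3 UMIs. Those UMIs came from 7 of 318 cells (2.20%, 0.889 to 4.48), and 0 of 117 TGFβR-WT cells allow up to 2.56%. A difference in the share of activated cells was therefore not detectable. In migratory cells, which held 6 of the 7 *Klrk1*-positive and 4 of the 6 *Klrd1*-positive TGFβR-WT cells, *Klrk1* was positive in 6 of 89 TGFβR-WT cells (6.74%, 2.51 to 14.1), above the 3.25% of TGFβR-KO, and *Klrd1* in 4 of 89 (4.49%, 1.24 to 11.1) against 2.89%. These intervals overlap those of TGFβR-KO. All of these TGFβR-WT cells were in the larger set.

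Members met in single TGFβR-KO cells in 2 patterns. Of the 2975 cells, 1125 (37.8%) were positive for at least 1 member, 293 (9.85%, 8.8 to 11) for at least 2 and 31 for at least 3, whereas 12 of 1007 TGFβR-WT cells (1.19%) and 3 of 1098 TGFβR-CA cells (0.273%) had at least 2. CTL held 124 of the 293. In the lectin-like pattern, 13 of 24 *Klrc1*-positive cells (54.2%, 32.8 to 74.4) also had *Klrg1*, against 3.59% of *Klrc1*-negative cells, and 23 of 70 *Klrd1*-positive cells (32.9%, 22.1 to 45.1) had *Klrg1* against 3.30%. *Klrk1*-positive cells had *Klrg1* in 10.7% (4.72 to 19.9), against 3.83%. Only 3 of the 24 *Klrc1*-positive cells also had a UMI of its partner *Klrd1* (12.5%, 2.66 to 32.4), above the 2.27% of other cells, and at these counts a transcript can be missed in a cell that has it.

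In the other pattern *Cd160* and *Cd7* occurred together, with *Cd7* in 191 of 498 *Cd160*-positive cells (38.4%, 34.1 to 42.8) against 19.1% of the rest. *Cd7* was about as frequent in *Klrd1*-positive cells, 26 of 70 (37.1%, 25.9 to 49.5) against 22.0%, so the patterns were not separate. *Cd160* and *Cd7* did not track *Klrg1*: *Cd160* was in 16.8% of *Klrg1*-positive and 16.7% of *Klrg1*-negative cells, and *Cd7* in 18.5% and 22.5%. Both patterns also held inside a cluster, but not for every pair. Among CTL cells *Cd7* was in 98 of 130 *Cd160*-positive (75.4%, 67.1 to 82.5) and 53.9% of *Cd160*-negative cells (46.6 to 61.1), and *Klrd1* was in 11 of 35 *Klrg1*-positive (31.4%, 16.9 to 49.3) and 4.20% of *Klrg1*-negative cells (2.19 to 7.21). Among tumorigenic cells *Klrc1* was in 11 of 60 *Klrg1*-positive (18.3%, 9.52 to 30.4) and 2.99% of *Klrg1*-negative cells (1.38 to 5.6). *Klrk1* was there in 7 of 60 *Klrg1*-positive (11.7%, 4.82 to 22.6) and 7.97% of *Klrg1*-negative cells (5.18 to 11.6), with overlapping intervals. Among CTL cells *Klrk1* was in 0 of 35 *Klrg1*-positive and 2 of 286 *Klrg1*-negative cells. *Klrd1* and *Cd7* changed sides between clusters: *Cd7* was in 6 of 23 *Klrd1*-positive CTL cells (26.1%, 10.2 to 48.4) against 65.4% of the other CTL cells, yet in 15 of 24 *Klrd1*-positive migratory cells (62.5%, 40.6 to 81.2) against 30.2%. These shares describe cells of 1 library and are not tests between animals, and droplets that held 2 cells were not called.

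**Figure D4:**
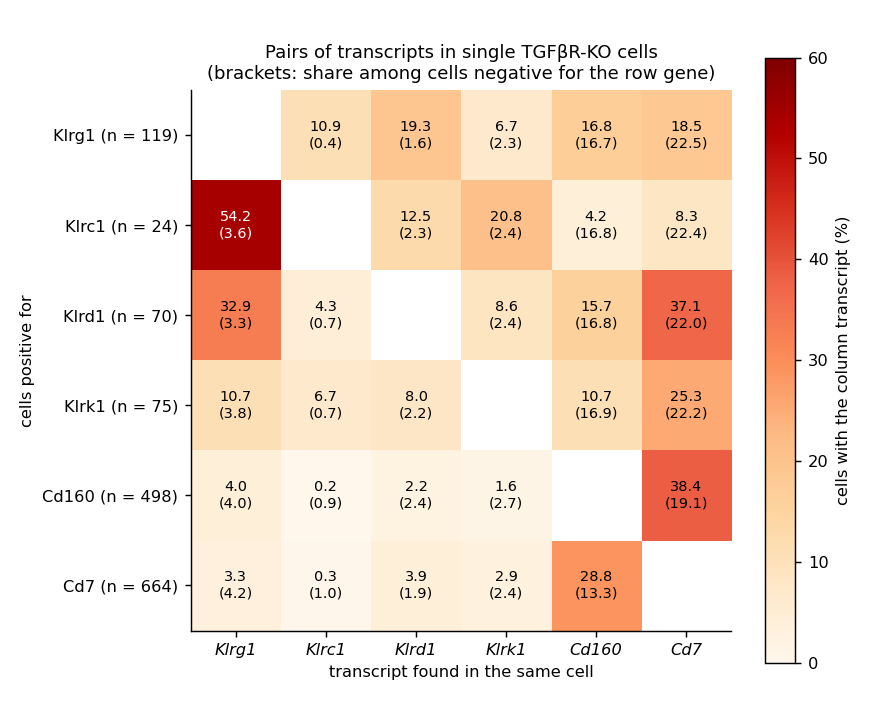
For TGFβR-KO cells positive for the gene of each row, the percent also positive for the gene of each column (color scale), with the percent among cells negative for the row gene in brackets. The dark cell is *Klrg1* among *Klrc1*-positive cells (54.2%, against 3.6%). *Cd7* was in 38.4% of *Cd160*-positive cells (against 19.1%) and in 37.1% of *Klrd1*-positive cells (against 22.0%).

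Most positive cells carried transcripts of αβ CD4 T cells. *Cd4* was seen in 67.1% to 72.9% of the TGFβR-KO cells positive for each member, near the 70.0% to 70.6% of the cells negative for it, and *Trac*, the constant region of the αβ receptor, in 94.3% to 100% of them. *Cd3e*, of the CD3 complex, was in 93.3% to 98.3% of them except for the *Klrc1*-positive cells, where it was in 19 of 24 (79.2%, 57.8 to 92.9) against 96.0% of negative cells. *Cd8a* was in 0 of the cells positive for a *Klr* member, and in 5 of the 498 *Cd160*-positive and 1 of the 2477 *Cd160*-negative cells. *Eomes*, a factor of NK and CD8 T cells, was in 3 of 119 *Klrg1*-positive cells (2.52%) and 0.315% of negative ones. *Trdc*, of the γδ receptor, was in 3 of 119 *Klrg1*-positive (2.52%) and 4 of 75 *Klrk1*-positive cells (5.33%), against 0.385% and 0.345% of negative cells, and all 4 of the latter were among the 31 *Klrk1*-positive tumorigenic cells. Leaving out the 509 cells of all genotypes with a UMI of a CD8, γδ or NK marker left *Klrg1*, *Cd160* and *Cd7* called. The minimum of UMIs was still taken over all cells, and *Klrg1* was at 0 in both TGFβR-WT sets. The calls of *Klrg1* and *Cd7* could therefore hardly be undone by this step. Median corrected UMIs per cell were between 3754 and 4102 in positive and between 3752 and 3795 in negative cells.

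Transcripts of the type 1 effector program were unevenly shared by the lectin-like receptors. *Nkg7*, a cytotoxic granule gene, was in 89.9% of *Klrg1*-positive, 95.8% of *Klrc1*-positive, 65.7% of *Klrd1*-positive and 42.7% of *Klrk1*-positive cells, against 23.6% to 25.8% of negative cells. *Ifng*, encoding interferon-γ, was in 73.9%, 87.5%, 50% and 40% of them. *Tbx21* was in 37.0% of *Klrg1*-positive cells against 7.42% of negative ones, and *Gzmb*, encoding granzyme B, in 38.7% against 10.6%. *Klrd1*-positive cells were close to these, with *Tbx21* in 30% and *Gzmb* in 38.6%, whereas *Klrk1*-positive cells had *Tbx21* in 13.3% and *Gzmb* in 14.7%, against 8.48% and 11.7% of negative cells. The chemokine gene *Ccl5* was in 71.4% of *Klrg1*-positive cells, but in *Klrk1*-positive cells it was in 24%, against 26.7% of negative cells. In *Cd160*-positive and *Cd7*-positive cells *Ifng* was in 33.1% of each and *Nkg7* in 43.2% and 43.8%.

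Inside single clusters the picture was mixed. Inside the tumorigenic cluster *Ifng* was in 54 of 60 *Klrg1*-positive cells (90%) at a level of 64.6, against 54.2% of *Klrg1*-negative cells at a level of 13.2. *Klrk1*-positive cells of that cluster had *Ifng* in 54.8% (36.0 to 72.7), against 60.6% of the others (55.1 to 65.9). The level of *Ifng* went the other way, at 32.6 in *Klrk1*-positive and 20.5 in *Klrk1*-negative tumorigenic cells. *Klrd1*-positive tumorigenic cells had *Tbx21* in 11 of 20 (55%) and *Ccl5* in 19 of 20 (95%), against 17.6% and 34.0% of *Klrd1*-negative ones. *Klrd1* had no such company in migratory cells, where *Ifng* was in 3 of 24 *Klrd1*-positive cells (12.5%) and 15.5% of *Klrd1*-negative ones. Inside CTL, *Ifng* was in 68.6% of *Klrg1*-positive and 69.6% of *Klrd1*-positive cells, against 44.8% and 45.6% of the cells negative for each, and *Gzma*, encoding granzyme A, in 43.8% of *Cd160*-positive and 13.1% of *Cd160*-negative cells.

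**Figure D5:**
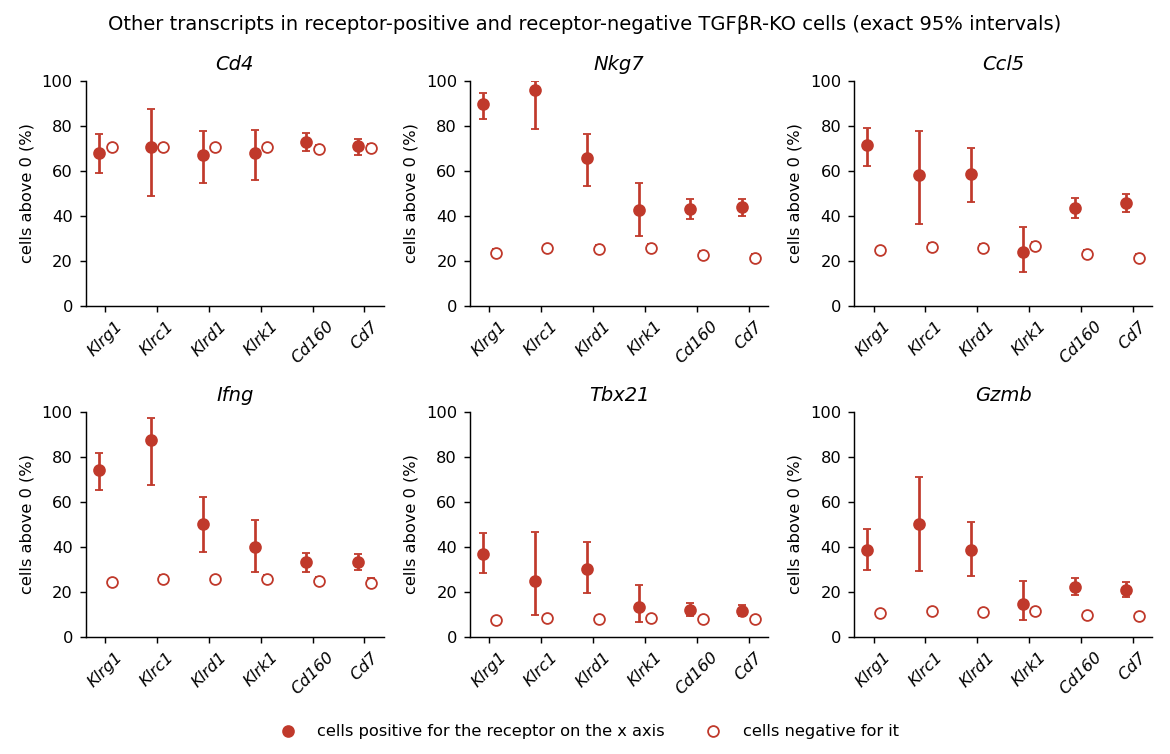
Share of TGFβR-KO cells (y axis, in %) with *Cd4*, *Nkg7*, *Ccl5*, *Ifng*, *Tbx21* or *Gzmb*, in cells positive (filled) and negative (open) for each receptor on the x axis, with exact 95% intervals. *Cd4* is alike in all, whereas *Ifng* goes from 87.5% and 73.9% in *Klrc1*-positive and *Klrg1*-positive cells to 33.1% in *Cd7*-positive cells.

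The partners of these receptors did not move as a group. Of 19 listed adaptors and proximal signaling genes 13 had 200 UMIs, and 0 were called higher and 1 lower in TGFβR-KO (2.94% and 5.43% of all genes tested). Their median log2 ratio was -0.19 beside -0.09 over all genes tested. *Hcst*, encoding DAP10, was at 9.53 in TGFβR-KO, 6.61 and 5.40 in the TGFβR-WT sets and 6.02 in TGFβR-CA, a ratio of 1.44 to the nearer set. It was in 74 of 75 *Klrk1*-positive TGFβR-KO cells (98.7%) and 88.8% of *Klrk1*-negative ones. *Tyrobp*, encoding the adaptor DAP12, had 8 UMIs in all, so these cells carried DAP10 and almost no DAP12 transcript. *Ptpn11*, encoding the phosphatase SHP-2 that inhibitory receptors recruit, was 1.94 times lower in TGFβR-KO (0.767) than in the nearer TGFβR-WT set (1.48). In TGFβR-CA 2 of the 13 were called higher, beside 1.23% of all genes tested. They were *Cd247* (0.351 against 0.215 and 0.0989) and *Plcg1* (0.297 against 0.116 and 0.0907).

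Of 16 listed ligands 3 had enough UMIs, and 1 was called higher in TGFβR-KO, beside 2.94% of all genes tested. *Lgals1*, encoding the CD7 ligand galectin-1, was at 10.9 in TGFβR-KO, 6.20 and 3.13 in the TGFβR-WT sets and 3.09 in TGFβR-CA, 1.75 times higher in TGFβR-KO than in the nearer set. *H2-T23*, encoding Qa-1, was at 3.99 in TGFβR-KO and 2.67 and 3.32 in the TGFβR-WT sets. *Tnfrsf14* was at 0.179 in TGFβR-KO and 0.207 and 0.157 in TGFβR-WT, and *Cdh1*, encoding E-cadherin, was listed at 0 in every set. Epithelial cells, the usual carriers of E-cadherin, were outside the sort.

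Of 34 other NK receptor genes listed, 7 had enough UMIs, and in TGFβR-KO 2 were called higher and 2 lower. Over all genes tested 2.94% were higher and 5.43% lower. *Cd226*, the activating receptor DNAM-1, was at 1.45 in TGFβR-KO and 0.590 and 0.495 in TGFβR-WT, a ratio of 2.45 to the nearer set. *Slamf7* was 5.68 times higher (0.317 against 0.0559 and 0.0247), and it too reached the minimum of UMIs through TGFβR-KO. *Tigit*, the inhibitory receptor that competes with DNAM-1 for its ligand, was 1.73 times lower in TGFβR-KO (0.122 against 0.211 and 0.247) and was called higher in TGFβR-CA (0.381). *Cd27* was 2.38 times lower in TGFβR-KO (0.465 against 1.11 and 1.34).

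The cytotoxic and type 1 genes listed beside the receptors were mostly higher in TGFβR-KO, 14 of 18 with enough UMIs and 0 lower, beside 2.94% higher over all genes tested. Of these, *Fasl*, *Ccl3*, *Ccl4*, *Xcl1*, *Tbx21*, *Zeb2*, *Il18rap* and *Il12rb2* reached the minimum of UMIs only through TGFβR-KO. Their calls, like those of *Klrg1* and *Cd7*, are therefore not independent of that filter. The 14 were *Gzma*, *Gzmb*, *Nkg7*, *Fasl*, *Ccl3*, *Ccl4*, *Ccl5*, *Xcl1*, *Ifng*, *Tbx21*, *Zeb2*, *Id2*, *Il18rap* and *Il12rb2*. Against the nearer set *Ccl5* was 17.3 times and *Nkg7* 5.97 times higher. In TGFβR-CA 6 of the 18 were called lower, beside 2.74% of all genes tested. They were *Gzma*, *Nkg7*, *Ccl5*, *Ifng*, *Runx3* and *Id2*, with *Gzma* lower by 7.29 times and *Ccl5* by 11 times. *Cd7* shared that pattern of higher in TGFβR-KO and lower in TGFβR-CA, and *Cd160* did not.

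Likeness of pattern was measured over 19 groups of genotype and cluster with at least 20 cells, as Pearson's r of log2(level + 0.1). The groups share libraries and the sparse members rest on few UMIs, so r is a description with no test. The genes most like *Klrg1* were *Chsy1* (0.89), *Ccl5* (0.88) and *Tbx21* (0.87). For *Klrc1* they were *Dennd4a* (0.78), *Ifrd1* (0.73) and *Klrg1* itself (0.73), and for *Klrd1* they were *Ccl5* (0.79), *Rap1gap2* (0.77) and *Iqgap1* (0.76). *Klrk1* was most like *Avpi1* (0.83), *Ifngr1* (0.81) and *Ramp3* (0.81). *Cd160* was most like *Rsl1d1* (0.85), *Serbp1* (0.83) and *Uqcc2* (0.82), and *Cd7* like *Cxcr3* (0.91), *Epsti1* (0.90) and *Adgre5* (0.90).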

How the data were processed

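Cells of 4 samples were compared as 3 genotypes, with groups from the labels of the samples and the condition written for each cell. The authors counted UMIs with Cell Ranger 3.1.0 against mm10 (per the submitters' processing notes, with Seurat, version not given in the sources used here), filtered cells, normalized with SCTransform, and integrated and clustered them after γδ T cells and epithelial cells had been taken out. What they deposited is, per cell and gene, a natural log value, ln(1 + corrected UMIs), and 11.69% of them are above 0. After the log was undone, all were whole numbers within 1e-06. How doublets were treated is not given in the sources used here beyond an upper limit of 5000 detected genes per cell, and no doublet caller was run. The values are not counts of raw UMIs, so no count model was fitted, and SCTransform may have changed sparse genes most.

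Levels, ratios and shares were computed with Python 3.11.15, numpy 2.4.6, scipy 1.17.1 and pandas 2.3.3, and figures drawn with matplotlib 3.10.9. A group at 0 entered a ratio as 3 corrected UMIs. Median log2 ratios of lists use the ratio nearer to 1 of those against the 2 TGFβR-WT sets, or their geometric mean where these disagree in direction. Within a cluster, genes needed 20 corrected UMIs. Named genes are the members, genes of the lists called by the rule of 1.5, the main partners of the receptors, the 3 genes most like each member and the markers. The members and gene lists were chosen with earlier results of these data known, and the motifs after the data were seen. The calling step was tested on simulated data. Gene positions come from GENCODE vM21 and promoters from RefSeq on GRCm38.p6. Alternatives changed the reference set, the ratio, the way of averaging, the depth per cell, the cells, the cluster shares and the gene minimum.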

Additional observations from a re-analysis of the deposited data

Results flagged for a closer look

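*Cd7* moved in opposite directions in the genotypes relative to both TGFβR-WT sets: the level in TGFβR-KO was 3.70 times that of the nearer set and the level in TGFβR-CA 0.461 times that of the nearer set. The difference between the genotypes was not tested, since each was 1 sample.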

How the results depend on the processing

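Each count of called members was recomputed under 12 other settings and 3 more chosen after seeing the data. The number of members higher in TGFβR-KO stayed at 2 or 3, except that it was 5 with a gene minimum of 50 UMIs, when *Klrd1* and *Klrk1* were tested and called. It was 2 with a ratio of 2, without *Cd160*, and 2 with each cell thinned to 2955 UMIs, when *Klrg1* no longer reached the minimum. Where cells were left out, however, the minimum was still taken over all cells. Without the tumorigenic and CTL clusters *Klrg1* thus stayed called with 43 UMIs in TGFβR-KO and 0 in the other genotypes. The steady count is in part given by that rule. The number lower in TGFβR-CA was 1 except that it was 0 with clusters weighted to TGFβR-WT shares, where the nearer ratio of *Cd7* was 0.690. No member was called lower in TGFβR-KO or higher in TGFβR-CA under any of these settings. The *Cd7* ratio in TGFβR-KO went down to 1.91 with weighted clusters. Without the tumorigenic and CTL clusters the nearer ratio, or its bound where a set was at 0, was 1.92 for *Klrg1*, 1.30 for *Klrd1*, 1.75 for *Klrk1* and 1.5 for *Cd160*. With shares of cells and a set listed at 0 put at 4 positive cells, the *Klrg1* ratio was 2.98. Of the 18 genes named as most like a member, 12 remained with 0.5 added per 10000 and 15 with groups of at least 50 cells. No direction of a called ratio turned. No paired analysis was possible because each genotype compared had 1 sample and TGFβR-WT cells could not be assigned to theirs. Numbers of cells and UMIs limit the *Klr* members, and no replicate error could be had.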

Other observations

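The genes of NK1.1 and its relatives were not higher in TGFβR-KO. *Klrb1c* was at 0.179 per 10000 corrected UMIs in TGFβR-KO, 0.315 and 0.231 in the TGFβR-WT sets and 0.244 in TGFβR-CA. *Klrb1f* was at 0.393, 0.367, 0.404 and 0.306 in the same order. *Klrb1a* had 24 UMIs in all, with a level of 0.00610 in TGFβR-KO and 0.0399 and 0.0165 in the TGFβR-WT sets.

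Several further receptors were listed above 0 in TGFβR-KO cells alone, at numbers below the minimum used for calls: *Lair1* with 59 UMIs, *Crtam* with 39, *Klrc2* with 7, *Klre1* with 7 and *Cd244* with 6. *Lair1* encodes an inhibitory receptor for collagens, and *Crtam* a receptor known from cytotoxic T cells and CD4 cells that acquire cytotoxicity. The remark on listed zeros made for *Klrg1* holds for these genes too.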
